A study of Homo sapiens with 23 samples.

Results

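The regions described here are OCT4 binding sites without YY1: OCT4 ChIP-seq peaks of SCi-NCCITs kept without doxycycline that overlapped no YY1 peak in either of the 2 no-doxycycline YY1 libraries and none of the 751 listed SINE-VNTR-Alu elements (SVAs). They were chosen by those 3 readouts, so the absence of YY1 and the presence of OCT4 are the rule and not a result. The rule took 30904 of 50775 OCT4 peaks. Of the others, 7486 overlapped a YY1 peak in 1 replicate, 12329 in both, and 56 overlapped a listed SVA. The list holds only the SVAs that the study found without H3K9me3 in induced pluripotent cells, so other SVAs and LTR5Hs copies, which the guides can also match, are not on it. NCCIT is an embryonal carcinoma line, a pluripotent germ cell tumour line. SCi-NCCITs are NCCITs that carry, by piggyBac transposition, a tetracycline-inducible dCas9-KRAB (a nuclease-dead Cas9 fused to a repressor domain) and 2 single guide RNAs whose target sequence SVAs share with the LTR5Hs family of endogenous retroviral repeats, so the samples without doxycycline carry both transgenes too. The treated cells received 2 ug/mL doxycycline for 72 hours, and no doxycycline-treated line without guides was analysed here. OCT4 was profiled in 1 library per condition, YY1 and H3K9me3 in 2 per condition, H3K9me3 also in 1 library of parental NCCITs, and RNA in 3 libraries per condition. The labels do not say that replicates came from separate cultures, so p-values measure the spread between these samples.

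OCT4, the product of POU5F1, is a POU-domain transcription factor that holds cells in the pluripotent state, often bound next to SOX2 on a joint SOX and octamer motif in distal enhancers. YY1 is a ubiquitous zinc finger factor that binds many promoters and enhancers and bridges them. H3K9me3 is the histone mark of KRAB-directed silencing and of constitutive heterochromatin.

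The OCT4 lists held 50775 peaks without and 23352 with doxycycline, the YY1 lists between 56370 and 115673 and the H3K9me3 lists between 123014 and 181332. The read depth behind a peak is unknown. RNA libraries held between 14683302 and 47862234 estimated counts on genes, the smallest being no-doxycycline replicate 1. The cells carried their defining mRNAs: mean TPM (transcript abundance scaled to transcript length and library size) without doxycycline was 206 for POU5F1, 348 for SOX2, 314 for LIN28A and 187 for TDGF1. The targeted elements gained the mark. Of the 56 OCT4 peaks on listed SVAs, 4 and 4 carried an H3K9me3 peak without doxycycline and 50 and 52 with it.

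The sequences below are examples of what the OCT4 antibody enriched. They are the strongest site within 50 kb of SOX2 and of NANOG, and 2 further sites of the pluripotency list. The further 2 were picked because the 120 bases around their summits held an exact motif. The windows of FOXD3, DPPA5, OTX2 and MYCN, also strong sites of the list, held none. The last 2 lines are the strongest site of all, whose nearest TSS is that of MPC1, and another of the 5 strongest, near LINC02464, and were chosen after their values were seen. All are read from GRCh37, the sequence of hg19, on the plus strand. Capitals mark an exact match on either strand. The motifs are the SOX motif CATTGT and a composite of TTGT, 1 base of any kind and ATGCAAA. The octamer ATGCAAAT was searched too, and none of the windows printed holds it exactly. The windows of the chromosome 18 site and the REST promoter site, also among the 5 strongest, held no match.
SOX2 site, chr3:181425913-181426032: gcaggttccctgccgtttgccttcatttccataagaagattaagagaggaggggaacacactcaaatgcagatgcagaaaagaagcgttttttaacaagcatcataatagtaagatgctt
NANOG site, chr12:7925486-7925605: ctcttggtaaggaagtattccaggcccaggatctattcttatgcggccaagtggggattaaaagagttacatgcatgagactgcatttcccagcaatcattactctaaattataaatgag
UTF1 site, chr10:135045829-135045948: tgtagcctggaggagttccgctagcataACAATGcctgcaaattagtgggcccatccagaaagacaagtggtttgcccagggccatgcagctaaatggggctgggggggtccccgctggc
KLF5 site, chr13:73629010-73629129: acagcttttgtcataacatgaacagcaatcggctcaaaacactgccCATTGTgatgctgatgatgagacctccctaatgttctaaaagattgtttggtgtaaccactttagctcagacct
MPC1 site, chr6:166778862-166778981: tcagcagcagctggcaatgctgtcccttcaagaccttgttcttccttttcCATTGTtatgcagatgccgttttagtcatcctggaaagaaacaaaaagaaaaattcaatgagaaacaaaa
LINC02464 site, chr12:77668926-77669045: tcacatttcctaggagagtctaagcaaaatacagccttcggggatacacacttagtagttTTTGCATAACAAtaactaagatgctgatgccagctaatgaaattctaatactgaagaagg

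OCT4 sites without YY1 lay away from transcription start sites (TSSs). Their median distance to the nearest annotated TSS was 11077 bp, against 6959 bp for OCT4 sites with YY1 in 1 replicate and 1002 bp for those with YY1 in both. Of the 30904 sites, 3428 (11.1%, 95% Wilson interval 10.7 to 11.4) lay within 1 kb of a TSS. That share was 24.6% (23.6 to 25.6) with YY1 in 1 replicate and 49.6% (48.7 to 50.4) with YY1 in both. Introns held 53.3% of the sites without YY1, intergenic sequence 31.9% and exons 3.53%. A further 54 sites lay on contigs outside the assembled chromosomes. Upstream and downstream positions were nearly even, with 48.0% of summits upstream of the nearest TSS. The sites were 364 bp wide and 23309 bp from the next site of the same kind, at the median. Intervals here and elsewhere cover counting error over sites of 1 OCT4 library, not the spread between libraries.

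Fold enrichment over the local background, as the peak lists give it, hardly separated the classes. Its median was 5.76 at sites without YY1 (quartiles 4.57 and 8.31, highest 91.0), 5.86 with YY1 in 1 replicate and 5.46 with YY1 in both. Among sites without YY1 the enrichment was lower near TSSs, with a median of 4.99 within 1 kb and 5.82 in introns and in intergenic sequence. The 5 strongest on assembled chromosomes were in an exon 4901 bp from a TSS of MPC1, a mitochondrial pyruvate carrier subunit (91.0), in an exon 2091 bp from a TSS of the long noncoding RNA LINC00461 (81.0), in intergenic sequence on chromosome 18 (77.3), in the promoter of REST, a repressor of neuronal genes, 281 bp upstream of its TSS (77.2), and in an intron on chromosome 12 near LINC02464 (73.4). All 5 had a peak with doxycycline, at 71.8, 29.2, 62.1, 60.3 and 42.2.

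At the edge of the rule, 96 sites lay within 10 bp of a YY1 peak without overlapping it, and 97 OCT4 peaks were left out with an overlap of at most 10 bp. Median fold enrichment was 5.0 just inside and 5.70 just outside. The median gap from a site to the nearest YY1 peak was 8195 bp, and 4801 sites had one within 1000 bp.

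The sequence around the summits differed from that at OCT4 sites with YY1, and most from that at sites with YY1 in both replicates. In windows of 200 bp centred on the summit, the octamer ATGCAAAT stood in 12.4% (12.0 to 12.7) of 30850 sites without YY1, in 5.62% (5.23 to 6.04) of sites with YY1 in both replicates and in 2.03% of all 14292991 windows of that length tiling the genome. The composite motif stood in 2.25% (2.09 to 2.42), 0.303% (0.220 to 0.417) and 0.0212%. The SOX motif alone stood in 21.1%, 12.1% and 12.4%. At sites with YY1 in 1 replicate the shares lay between those of the other OCT4 classes. The octamer stood in 8.92% (8.3 to 9.59) of them and the composite in 0.859% (0.673 to 1.1). Their SOX share was 19.6% (18.7 to 20.5), close to that without YY1. Both strands were searched, and a composite contains most of an octamer. Of 4016 octamer matches at sites without YY1, 43.2% lay within 25 bp of the summit. The composite rose in frequency with enrichment, from 0.556% (0.396 to 0.779) in the weakest quintile of OCT4 peaks (the 50775 ranked by fold enrichment and cut into 5 groups) to 5.17% (4.62 to 5.77) in the strongest.

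YY1-type and promoter-type letters were rarer than at sites with YY1. The classes were split by YY1 peaks, so a difference in YY1 motif letters between them is not independent of the rule. The YY1 motif AANATGGC stood in 2.24% (2.08 to 2.41) of sites without YY1, in 8.39% (7.91 to 8.90) of sites with YY1 in both replicates and in 4.19% of genome windows. Its start-codon form ATGGCGGC stood in 0.0713%, 2.49% and 0.151%. The GC box GGGGCGGG stood in 1.20% (1.09 to 1.33) of sites without YY1 and 9.19% (8.69 to 9.71) of sites with YY1 in both, and in 0.495% of genome windows, so against the genome it was the more frequent and the YY1 motifs the rarer letters at sites without YY1. With YY1 in 1 replicate the shares lay between, at 4.94% for AANATGGC, 0.201% for ATGGCGGC and 3.88% for the GC box. Position bears on these shares. Within 1 kb of a TSS the GC box stood in 6.86% of sites without YY1 and 16.7% of sites with YY1 in both. Away from TSSs, sites without YY1 still held more octamers than sites with YY1 in both, 13% (12.6 to 13.4) against 9.28% (8.57 to 10.0), and fewer of the first YY1 motif, 2.34% against 10.2%. Over all positions, median GC content was 41.0% without YY1, 45% with YY1 in 1 replicate and 54.0% with YY1 in both. Farther than 1 kb from a TSS it was 40.5% without YY1 and 46% with YY1 in both. A match is a run of letters and not a measured binding site.

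**Figure D1:**
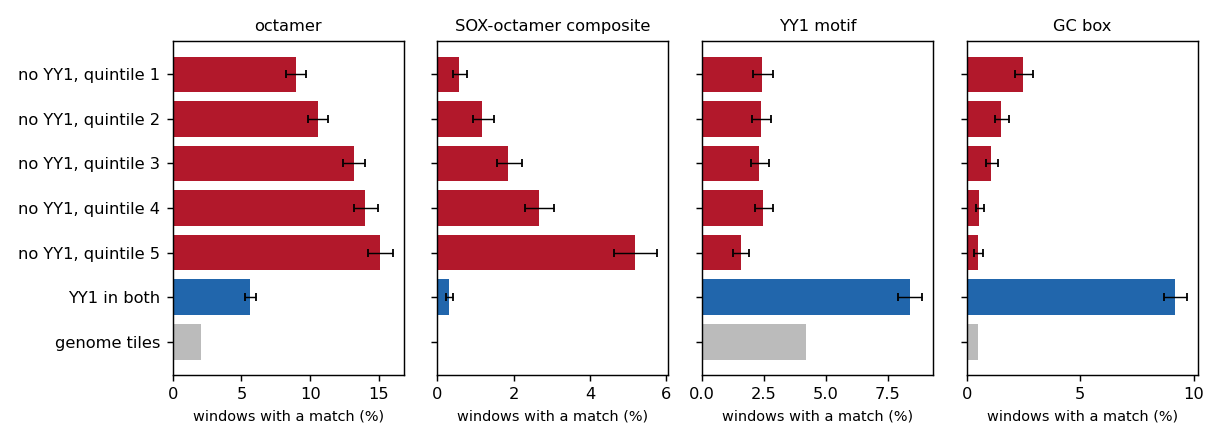
Share of 200 bp windows (percent) with an exact match to the octamer, the SOX-octamer composite, the YY1 motif AANATGGC and the GC box, for sites without YY1 by quintile of OCT4 fold enrichment (1 weakest, 5 strongest), OCT4 sites with YY1 in both replicates, and all windows tiling the genome; error bars are 95% Wilson intervals. The composite climbs from 0.556% to 5.17% across the quintiles while the GC box falls from 2.48% to 0.474%.

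A minority of the sites was called again after doxycycline. A doxycycline OCT4 peak overlapped 12997 of 30904 sites without YY1 (42.1%, 41.5 to 42.6), beside a background of 40.1% over all 50775 OCT4 peaks. The share was 43.7% (42.5 to 44.8) with YY1 in 1 replicate and 33.4% (32.6 to 34.2) with YY1 in both. There was 1 OCT4 library per condition, and the doxycycline list was the shorter one, so a loss of binding cannot be told apart from a difference between the libraries. When both lists were limited to the same number of peaks, 72.0% of the remaining sites without YY1 were retained.

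Strength went with retention. Retained sites had a median fold enrichment of 8.62 without doxycycline and 5.93 in the doxycycline peak, and sites that were not retained had 4.95. Across the quintiles of OCT4 fold enrichment, from weakest to strongest, 10.2%, 17.1%, 30.5%, 60.3% and 94.0% of sites without YY1 were retained. With YY1 in both replicates the values were 7.02%, 8.77%, 16.7%, 48.3% and 93.6%, so the classes parted in the middle quintiles and met in the strongest. Position went with it too. Among sites over 1 kb from a TSS, the first 4 quintiles gave 11.1%, 17.6%, 31.3% and 60.8% without YY1 and 15.9%, 14.7%, 27.2% and 62.3% with YY1 in both, a smaller gap in quintiles 2 to 4 than over all sites. Within 1 kb of a TSS, 29.3% (27.8 to 30.9) of sites without YY1 and 13.8% (12.9 to 14.6) of sites with YY1 in both were retained. Farther out the order turned, to 43.6% (43.0 to 44.2) and 52.1% (50.8 to 53.3), shares not matched for strength. The strongest quintile held 5257 of the 27422 farther sites without YY1 and 1979 of the 6113 with YY1 in both. In that quintile 93.8% were retained in either class. Sites without YY1 that were retained held the composite motif in 4.2% (3.87 to 4.56) and those not retained in 0.833% (0.710 to 0.977). Seen from the other side, 20552 of 23352 doxycycline OCT4 peaks (88.0%) overlapped a no-doxycycline peak.

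**Figure D2:**
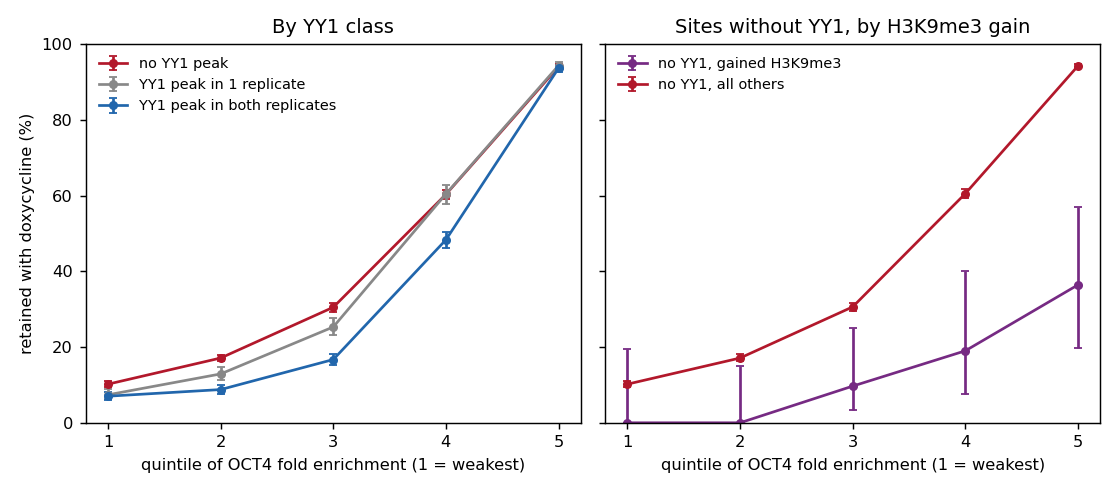
Share of OCT4 sites (percent) that overlap an OCT4 peak with doxycycline, by quintile of fold enrichment without doxycycline (1 weakest); points with 95% Wilson intervals, 1 OCT4 library per condition. Left, the classes differ most in quintiles 2 to 4 and meet in quintile 5, at 94.0% and 93.6%. Right, among sites without YY1, those that gained H3K9me3 lie below the others in every quintile, at 36.4% against 94.2% in quintile 5. The intervals overlap only in quintile 1.

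YY1 was called at few of the sites after doxycycline. A YY1 peak overlapped 1422 sites (4.60%) in doxycycline replicate 1 and 3641 (11.8%) in replicate 2, whose list is the longest of the YY1 libraries. It overlapped 798 (2.58%, 2.41 to 2.76) in both. These 798 sites were nearer to TSSs than the rest, with 29.3% within 1 kb, and on assembled chromosomes 4.65% (3.39 to 6.34) of them held the GC box. Their octamer share was 8.42% (6.68 to 10.6). They were retained by OCT4 in 42.4% (39.0 to 45.8). Since the rule itself required that YY1 be absent without doxycycline, a count above 0 with doxycycline follows from the rule, and with all YY1 lists limited to the same length 215 sites carried YY1 in both doxycycline libraries.

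Most sites had no H3K9me3 peak, as did most OCT4 peaks of any kind. No H3K9me3 peak of any of the 5 libraries touched 26570 of them (86.0%, 85.6 to 86.4), and 1744 (5.64%) carried one in every library. Over all 50775 OCT4 peaks the shares were 86.6% and 5.35%. The number of sites with a peak was 2990 and 3515 in the 2 libraries without doxycycline, 2303 and 3415 with doxycycline, and 2429 in parental NCCITs. The ranges of both conditions overlapped. The mean was 2859 ± 786 with and 3252.5 ± 371 without doxycycline (SD, n = 2 each), a difference of −393.5 (exact permutation test over libraries, two-sided, p = 0.67, where the smallest p possible is 0.33). Without doxycycline replicate 1, whose peaks cover 117.5 Mb against 176.1 to 182.7 Mb in the other SCi-NCCIT libraries, the difference was 162.5.

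A small set nonetheless went from no H3K9me3 in both no-doxycycline libraries to a peak in both doxycycline libraries. It held 112 sites (0.362%, 0.301 to 0.436), beside a background of 0.815% over all OCT4 peaks. The opposite change occurred at 134 sites (0.434%, 0.366 to 0.513; background 0.429%). Of the 112, 3 carried a peak in parental NCCITs. They included an intronic site 1879 bp upstream of a TSS of FHAD1, with H3K9me3 peaks of 14.7-fold and 14.1-fold enrichment in the 2 doxycycline libraries, an intronic site 5554 bp downstream of one of KIF9 (14.5 and 11.8), a site 536 bp downstream of a TSS of PROM1 (11.4 and 13.2) and an intronic site 5587 bp downstream of one of PTPN2 (19.3 and 9.97). The set depends on both replicates. It held 223 sites when only replicate 1 of each condition was used and 473 when only replicate 2 was used, 172 when YY1 replicate 2 was not used to remove sites, and 54 when no YY1 peak was allowed within 1000 bp.

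OCT4 was rarely called with doxycycline at sites that gained H3K9me3. Of the 112, 15 were retained (13.4%, 8.29 to 20.9), although their median fold enrichment without doxycycline was 5.90, close to the 5.76 of all sites. In the strongest quintile, 8 of 22 were retained (36.4%, 19.7 to 57.0), against 5349 of 5679 other sites without YY1 (94.2%, 93.6 to 94.8). In the next it was 4 of 21 against 60.5%, and in the weakest 2 it was 0 of 16 (upper bound 19.4%) and 0 of 22 (upper bound 14.9%). The share was 12.8% with H3K9me3 lists of equal length, 9.80% with at least 50% of the site covered, 25.6% with replicate 1 alone and 30.9% with replicate 2 alone. At the 134 sites that lost the mark, 72 were retained (53.7%, 45.3 to 62.0).

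The sites that gained H3K9me3 were mostly far from the listed SVAs, with 4 of 112 within 5 kb of one, though their distance from unlisted SVAs and LTR5Hs copies was not measured. Some of the sites nevertheless shared sequence around their summits with the listed SVAs. Runs of 24 letters found in at least 75 of the 751 listed SVAs, on either strand, were counted within 1000 bp on each side of the summit. Of positions in that window, at least 300 started one of the 1814 such runs at 20 of the 112 sites (17.9%, 11.9 to 26), at 0 of the 134 that lost the mark (upper bound 2.79%) and at 47 of the 30604 other sites on assembled chromosomes (0.154%, 0.116 to 0.204). Of these 20, 0 were retained (upper bound 16.1%), against 15 of the remaining 92 (16.3%) and 4 of the 47 (8.51%). A YY1 peak lay within 1000 bp of 58 of the 112 without doxycycline (51.8%, 42.6 to 60.8) and of 36 with it (32.1%, 24.2 to 41.3). At the other sites without YY1 the shares were 15.4% and 29.6%. Shares with and without doxycycline are not like for like. The rule removed sites that a YY1 peak overlapped without doxycycline, but not with it, and the doxycycline YY1 lists are the longer ones. The octamer stood at 3.57% (1.40 to 8.82) of the 112. Their repeat class was not annotated here, and whether the guides match there was not tested.

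Genes near those 112 sites were often lower with doxycycline. A gene was counted near a site when it had the nearest protein-coding TSS and that TSS lay within 50 kb of the summit. Of 67 such genes, 58 passed the filter on low counts, and 29 of the 58 were lower with doxycycline (50%) and 1 was higher (1.72%), at an adjusted p under 0.05 in edgeR's quasi-likelihood test. Over all 16370 genes tested, protein-coding or not, 8.49% were lower, 8.97% higher and 17.5% called in either direction. The median log2 fold change was −0.32 over the 58 genes and 0.00 over all genes. Within 10 kb it was 17 of 28 genes lower and 0 higher. Libraries are of bulk cells, so fewer cells with a transcript and less of it per cell cannot be told apart. Without a listed SVA within 50 kb of any of their TSSs there were 53 of the 58, and 28 of these were lower (52.8%). With 1 RNA library left out the count of lower genes ran from 20 to 31. Near the 134 sites that lost the mark, 8 of 45 genes were lower and 4 higher.

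PROM1, which encodes the membrane protein prominin, had 133, 138 and 133 CPM (counts scaled to library size) without doxycycline and 53.7, 55.3 and 57.4 with it. The groups did not overlap and the log2 fold change was −1.28 (SE 0.0523, adjusted p = 8.56e-07). PTPN2, a tyrosine phosphatase that restrains JAK-STAT signalling, had 68.4, 66.4 and 66.3 CPM without and 40.8, 40.2 and 37.6 with doxycycline (log2 fold change −0.76, SE 0.0545, adjusted p = 3.18e-05). Neither site had an OCT4 peak with doxycycline. CHI3L2, a chitinase-like secreted protein, fell from 14.8, 16.3 and 17.0 CPM to 2.22, 1.76 and 1.38, with the site 21244 bp downstream of its TSS (log2 fold change −3.17, adjusted p = 2.23e-06). REEP6, SLC4A8, SLC23A2, NRBP2 and NCOA7 fell by 1.25, 1.12, 1.00, 0.86 and 0.60 on the log2 scale. FEZ1, a kinesin adaptor of neurons, was the 1 gene that rose, by 0.91 on the log2 scale (adjusted p = 0.000123), and its site, 30677 bp upstream, was among the 15 that were retained.

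**Figure D3:**
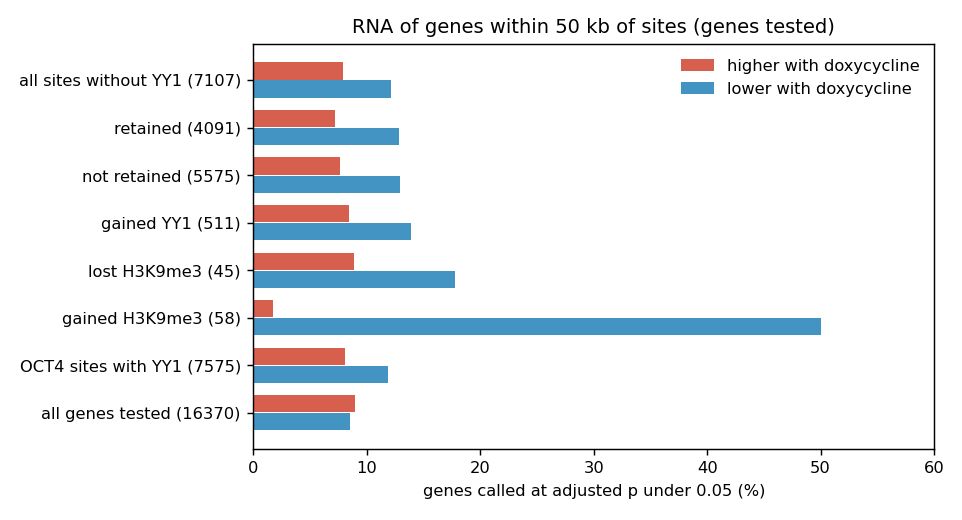
Share of genes (percent of the genes tested, given in brackets) called higher or lower with doxycycline at an adjusted p under 0.05 by edgeR, for genes whose nearest protein-coding TSS lies within 50 kb of sites without YY1, of subsets of these, of OCT4 sites with YY1, and for all genes tested. Genes near sites that gained H3K9me3 reach 50% lower, against 8.49% over all genes.

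Over all sites the lean toward lower genes was smaller. The sites had 8508 genes near them, of which 7107 were tested and 1422 called (20%, beside 17.5% over all genes). Of these, 559 were higher (7.87%, beside 8.97%) and 863 lower (12.1%, beside 8.49%). The genes near sites were all protein-coding. Of the 15186 protein-coding genes tested, 18% were called, 1414 of them higher and 1319 lower. Genes near OCT4 sites with YY1 gave the same 20%. Near retained sites 20% and near sites not retained 20.5% were called. The median log2 fold change was −0.04. The count fell to 741 without RNA doxycycline replicate 2, to 780 without no-doxycycline replicate 2, to 903 without no-doxycycline replicate 3 and to 933 without doxycycline replicate 1, when the calls over all genes also fell, to between 8.39% and 10.5%.

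Among genes with a site within 10 kb, a mean of at least 1 CPM over the 6 libraries and groups that did not overlap, the largest rises were those of IL23R (log2 fold change 4.81), a cytokine receptor, FOXD1 (3.44), a forkhead factor, OLFML2A (3.16), LHFPL4 (2.91) and DNASE1L3 (2.15). IL23R had 0.273, 0.284 and 0.232 CPM without and 6.62, 8.52 and 6.85 with doxycycline, and the OCT4 site 1474 bp upstream of its TSS was at 7.57-fold without and 8.16-fold with doxycycline. The sites of FOXD1, OLFML2A and LHFPL4 were retained as well, and that of DNASE1L3 was not. The largest falls were those of CRYAA, a lens crystallin (−3.88), ABCC2, an export transporter (−3.61), CHI3L2 (−3.17), SPTB, an erythroid spectrin (−2.69) and PIFO (−2.69). MLN, the gut hormone motilin, was under that limit and fell further, from 1.70, 1.01 and 0.859 CPM to 0.0666, 0.0209 and 0.0851 (log2 fold change −4.22, adjusted p = 0.000448), with a site that gained H3K9me3 5044 bp upstream. The 10 genes above the limit passed the test, with adjusted p-values from 1.58e-07 to 0.00196. The strongest sites within 10 kb of ABCC2, CHI3L2, SPTB and PIFO were retained, at 3.34-fold, 5.82-fold, 3.89-fold and 14.8-fold with doxycycline. That of CRYAA was not retained, and neither was the farther CHI3L2 site that gained H3K9me3. Among these strongest sites, one that stayed thus accompanied falls as well as rises.

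Nearly every pluripotency gene had an OCT4 site without YY1 in its neighbourhood. Of a list of 50 such genes, 46 (92.0%) had at least 1 within 50 kb of a TSS, against 66.7% of 20163 protein-coding genes, with a median of 2 sites per gene against 1. OCT4 sites with YY1 lay within 50 kb of 43 of the 50, so such a neighbourhood is not particular to sites without YY1. In 32 of the 50 (64.0%) at least 1 of those sites was retained, against 38.1% of protein-coding genes. The strongest site of each gene had a median fold enrichment of 8.78, against 7.07 over protein-coding genes that had one. In 7 of 46 genes that strongest site lay within 1 kb of the gene's own TSS, in 2 it carried H3K9me3 in any library, and in 4 it carried YY1 in both doxycycline libraries.

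SOX2, the partner of OCT4, had 9 sites within 50 kb, the strongest 3740 bp upstream at 18.7-fold without and 9.85-fold with doxycycline. Its TPM was 371, 352 and 319 without and 321, 259 and 303 with doxycycline, overlapping groups (log2 fold change −0.19, SE 0.0808, adjusted p = 0.132). NANOG, the homeobox factor of the same core circuit, had 8, the strongest 14844 bp upstream at 9.77-fold and 8.29-fold. NANOG fell without overlap, from 41.7, 54.4 and 44.9 TPM to 32.5, 31.5 and 29.2 (log2 fold change −0.57, SE 0.0522, adjusted p = 0.000136). POU5F1 itself had none, and neither did LIN28A, TFCP2L1 and TERT. For POU5F1 this cannot be read as absence, because neither OCT4 library and neither no-doxycycline YY1 library has a single summit between 29 and 32 Mb of chromosome 6, where POU5F1 lies, of 3574 OCT4 peaks on that chromosome without doxycycline. The no-doxycycline H3K9me3 libraries have 15 and 10 there. POU5F1 had 250, 190 and 178 TPM without and 203, 168 and 178 with doxycycline, overlapping groups (adjusted p = 0.527). For the YY1 gene only sites within 10 kb that had its TSS as the nearest protein-coding one were counted. There was 1, 4377 bp upstream and not retained, and the gene's log2 fold change was −0.10 (adjusted p = 0.202).

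Other genes of the list had strong sites too. The site 2168 bp downstream of the TSS of UTF1, a chromatin factor of pluripotent cells, was at 31.3-fold and 20.9-fold. That of FOXD3, a forkhead factor, was at 30.9-fold without and 6.40-fold with doxycycline, and that of DPPA5 at 27.8-fold and 9.83-fold. These values come from 1 library per condition. Both genes had little RNA, at a mean TPM without doxycycline of 0.285 for FOXD3 and 1.88 for DPPA5. Promoter sites of KLF5, a Kruppel-like factor (44 bp upstream, 20.4-fold and 18.6-fold), and of USP44, a deubiquitinase (62 bp upstream, 17.3-fold and 17.5-fold), were close to their first values. PRDM14, a repressor of differentiation genes, had 9 sites, 5 of them retained, the strongest at 18.3-fold and 14.1-fold.

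In RNA, 47 of the 50 genes were tested, 17 were lower with doxycycline (36.2%, beside 8.49% over all genes) and 2 were higher, with a median log2 fold change of −0.17. The median over all genes was 0.00. All 17 had a site without YY1 within 50 kb, as did 46 of the 50 genes anyway, and in 11 of the 17 the strongest one was retained. TDGF1, the NODAL co-receptor CRIPTO, changed the most of the 17, from 192, 186 and 183 TPM to 86.8, 79.7 and 76.9 (log2 fold change −1.13, SE 0.0651, adjusted p = 8.33e-06). Its strongest site was at 14.8-fold without and 5.82-fold with doxycycline. L1TD1, an RNA-binding protein (−0.62), JARID2, a PRC2 cofactor (−0.61), MYCN (−0.61), the de novo methyltransferase DNMT3B (−0.60), PRDM14 (−0.60), ZFP42 (−0.40), USP44 (−0.36) and SALL4 (−0.22) fell too. OTX2 rose by 0.23 on the log2 scale (adjusted p = 0.0393). The calls of OTX2 and SALL4 each failed in 5 of the 6 fits that leave out 1 RNA library, at adjusted p-values of 0.0678 to 0.134 and 0.0512 to 0.157, and held only without doxycycline replicate 1. KLF5 rose by 0.66 in counts (adjusted p = 0.00456), but its TPM was 7.35, 5.32 and 9.78 without and 7.56, 6.22 and 8.41 with doxycycline, overlapping groups. The TPM of OTX2, at 43.6, 45.5 and 38.9 without and 43.5, 47 and 51 with doxycycline, overlapped too. So did that of SALL4, at 35.8, 37.5 and 32.3 without and 33.1, 27.8 and 30.3 with doxycycline. UTF1, FGF2, SALL1, HESX1, POU3F1 and FOXH1 did not pass the test. With 1 RNA library left out, between 13 and 18 of the list were lower.

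**Figure D4:**
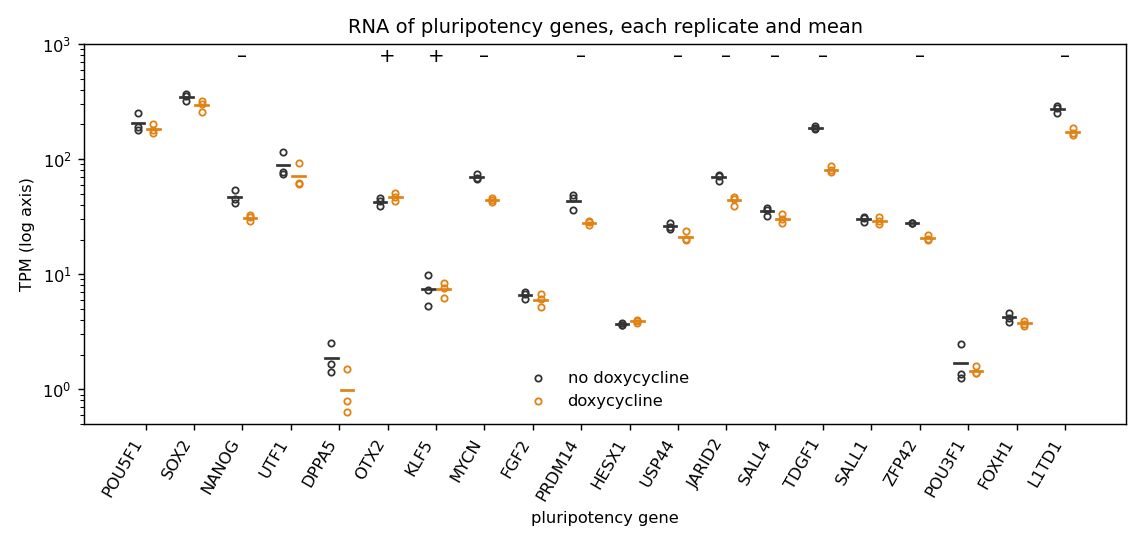
TPM (log axis) of pluripotency genes in each of 3 replicates per condition (circles) with the mean (bars), for POU5F1, SOX2 and NANOG and then genes with strong OCT4 sites without YY1 and a mean of at least 1 TPM; a plus or minus sign marks a gene higher or lower with doxycycline at an adjusted p under 0.05 by edgeR on counts. NANOG, MYCN, PRDM14, USP44, JARID2, SALL4, TDGF1, ZFP42 and L1TD1 carry a minus sign, and OTX2 and KLF5 a plus sign. The TPM groups of SALL4, OTX2 and KLF5 overlap.

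Genes of the germ layers and of trophoblast also had OCT4 sites without YY1: 24 of 27 had a site within 50 kb (88.9%), with a median of 2. In 15 of the 27 (55.6%) at least 1 was retained. The pluripotency list gave 92.0% and 64.0%, so such shares are not particular to it. The 6 with the strongest sites were GATA2 (41.9-fold, 33.7-fold with doxycycline), MIXL1 (27.2 and 17.1), ZIC1 (17.9 and 18.3), TFAP2C (17.8 and 9.08), TBXT (12.4 and 9.14) and SOX1 (11.6, not called with doxycycline). SOX1 had another site of nearly the same strength, 12226 bp downstream at 11.6-fold, which was called with doxycycline at 7.03-fold. Of 22 genes tested, 4 were higher with doxycycline and 1 was lower, 22.7% called in all beside 17.5% over all genes. GATA6, an endoderm factor, rose from 0.512, 0.311 and 0.474 TPM to 1.05, 1.04 and 1.07 (log2 fold change 1.46, SE 0.209, adjusted p = 0.00194). MIXL1, a mesendoderm factor (0.55), NES, the intermediate filament nestin (0.47) and NEUROG2, a neurogenic factor (0.98) rose, and TFAP2C, shared by trophoblast and germ cells, fell by 0.29 on the log2 scale. The call of NEUROG2 failed in 5 of the 6 fits without 1 RNA library, that of MIXL1 in 4 and that of NES in 1. The median log2 fold change was 0.36, and GATA6, MIXL1 and NEUROG2 stayed below 3 TPM in every library.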

How the data were processed

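ChIP-seq and RNA-seq of SCi-NCCITs were analysed; 6 HiChIP samples and the authors' own tables of changed genes (fold changes and p-values) were not used. For ChIP-seq, the authors aligned reads to hg19 with BWA and filtered them on mapping quality, to keep those likely to map uniquely. They discarded PCR duplicates and called peaks at a 5% FDR. There is 1 deposited list per library. The deposited lists give fold enrichment as a ratio, p-values and q-values as −log10, and summits. For RNA-seq, the deposited values are the estimated counts and TPM per transcript that the authors made with kallisto. Estimated counts were summed per gene, rounded, filtered with filterByExpr and tested with edgeR 4.0.16 (TMM, quasi-likelihood, Benjamini-Hochberg) without a block. Overlap meant at least 1 bp. TSSs came from GENCODE v44lift37 on GRCh37, and no OCT4 no-doxycycline peak ended past a chromosome. Shares carry 95% Wilson intervals. Pluripotency and germ layer genes, the motifs and the sites were chosen with earlier results of these data known. Genes named were the listed genes with the strongest sites, those at the 5 strongest sites, POU5F1, YY1, and the 5 largest rises and falls within 10 kb (mean of at least 1 CPM, groups not overlapping). The other genes near sites that gained H3K9me3, and the shared runs of sequence, were chosen after their values were seen. Overlaps were tested on simulated intervals against bedtools 2.31.1, and edgeR on simulated counts. Alternatives included DESeq2 1.42.0. A few genes and sites that this rule takes are not reported here.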

Additional observations from a re-analysis of the deposited data

How the results depend on the processing

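The share retained was 55.2% for OCT4 peaks with a −log10 q of at least 5, 43.3% with no YY1 peak within 1000 bp, 38.1% with at least 50% of the site covered, 41.1% with summits within 200 bp, 72.0% with equal OCT4 lists and 41.2% to 43.1% with 1 YY1 replicate left out. The share within 1 kb of a TSS was 9.23%, 9.13% and, when only YY1 peaks with a −log10 q of at least 5 removed a site, 12.6%. It was 7.59% with protein-coding TSSs, 12.6% from the peak edge and 12.0% to 13.2% with 1 YY1 replicate left out. Sites with YY1 in both doxycycline libraries numbered 526 with no YY1 peak within 1000 bp, 1812 when only the stronger YY1 peaks removed a site, 345 with the stronger doxycycline peaks, 215 with equal lists, and 1774 to 2489 with 1 YY1 replicate left out. The H3K9me3 difference ran from −949.5 to 162.5 with 1 library left out, and only the last, without doxycycline replicate 1, turned its sign. Sites that gained H3K9me3 numbered 54 with no YY1 peak within 1000 bp and 130 to 473 with a replicate left out, alternatives chosen after seeing the data.

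Genes called with doxycycline ran from 1396 to 3260 over all genes, and from 741 to 1573 near the sites, with 1 RNA library left out. Near retained sites alone 818 were called. No replicate pairing was shown: deviations of same-numbered libraries correlated at 0.128, 0.0799 and −0.000944. The replicate block gave 3316 calls over all genes and 1661 near the sites. DESeq2 gave 2946 and 1484. Of 1536 values of 142 single genes under the alternatives, 71 lost and 28 gained significance and none turned sign among called genes. Pluripotency genes with a site numbered 35 within 10 kb and 47 within 100 kb. Depending on the library left out, 4 to 16 calls of named genes were lost, the most without doxycycline replicate 2. Peak lists carry no read depth, and OCT4 has 1 library per condition, so neither counting error at a site nor replicate error of retention can be given.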
